A study of Mus musculus with 15 samples.

Results

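Kidney levels are described here for 10 mouse genes known from fat and heat production, 10 of the 22180 genes measured. Ucp1, Elovl3, Otop1, Cidea and Dio2 are genes of brown fat, Cox8b and Cox7a1 encode respiratory chain subunits of heart, muscle and brown fat, Lep and Adipoq encode adipokines, and Cirbp encodes a cold-inducible RNA-binding protein. The genes were selected on their measured difference between knockout and wild-type kidneys in these samples, so that difference is given as a description, with no p-value for any of them. Counts of calls among them are given only beside the share of all probe sets called. Each gene was read from the probe sets annotated to it alone, which gave 2 probe sets for Dio2 and 1 for each of the others.

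The 15 kidneys came from 8 Grhl1-/- mice (replicates 8 to 15) and 7 Grhl1+/+ mice (replicates 1 to 7), all aged about 6 months. Grhl1, of the grainyhead family, is a regulator of epithelial genes. The labels state neither which part of the gene was deleted nor the sex, strain or litter of the animals. Each array was taken as 1 animal, and the values are on the log2 scale, after summary by robust multi-array average (RMA).

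Brown fat cells burn fatty acids in mitochondria that Ucp1 uncouples from ATP synthesis. Noradrenaline from sympathetic nerves, acting through cAMP, and the active thyroid hormone made by Dio2 switch the programme on. In mice, brown adipocytes can lie in the fat around the kidney. White fat cells release leptin, the product of Lep, which reports fat stores to the brain, and all mature fat cells release adiponectin, the product of Adipoq. In a bulk sample, fewer cells of a type and less RNA per cell cannot be told apart.

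Promoters are printed from the RefSeq table of the assembly GRCm38.p6 for Ucp1 and for Otop1, the gene whose level followed Ucp1 most closely below, and for Dio2, whose promoter is known to respond to cAMP. Each window runs from 250 bases before to 50 bases after the gene start, 5′ to 3′ on the gene's strand. Ucp1 is at chr8:83290098-83290397 on the plus strand, Otop1 at chr5:38277154-38277453 on the plus strand and Dio2 at chr12:90738989-90739288 on the minus strand. Capitals mark a match to AGGTCA, a half-site of nuclear receptors, or to TGACGTCA, the cAMP response element.
Ucp1: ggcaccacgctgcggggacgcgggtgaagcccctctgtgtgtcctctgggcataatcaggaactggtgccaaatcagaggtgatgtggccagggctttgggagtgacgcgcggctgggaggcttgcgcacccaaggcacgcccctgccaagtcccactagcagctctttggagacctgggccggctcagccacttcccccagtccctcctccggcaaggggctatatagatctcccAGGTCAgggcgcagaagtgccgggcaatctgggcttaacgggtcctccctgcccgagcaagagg
Otop1: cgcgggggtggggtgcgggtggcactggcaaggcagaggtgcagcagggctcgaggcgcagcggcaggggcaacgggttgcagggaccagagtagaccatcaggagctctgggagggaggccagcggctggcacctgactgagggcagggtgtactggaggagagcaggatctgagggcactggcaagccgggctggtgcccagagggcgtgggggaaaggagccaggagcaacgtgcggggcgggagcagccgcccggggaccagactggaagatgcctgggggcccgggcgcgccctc
Dio2: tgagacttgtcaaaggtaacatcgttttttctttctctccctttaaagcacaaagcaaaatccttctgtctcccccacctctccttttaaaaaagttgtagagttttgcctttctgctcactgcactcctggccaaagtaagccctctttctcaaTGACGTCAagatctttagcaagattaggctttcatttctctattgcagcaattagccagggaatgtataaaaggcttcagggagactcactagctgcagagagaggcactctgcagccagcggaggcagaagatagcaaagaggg

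The Ucp1 window holds AGGTCA on the plus strand of the window, starting at position -14 from the gene start, and 16.3% of 32851 promoters of the same length hold it on either strand. The Dio2 window holds TGACGTCA, starting at position -95, and 1.79% of these promoters hold it. The heat shock element core GAANNTTC, on either strand and present in 7.86% of these promoters, was in none of the windows tabled for the members. The table held windows for 8 of the 10 members, with 2 for Cirbp. A match describes the letters of the window only.

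Several facts of the whole series touch the results below. The probe set of Grhl1 averaged 4.70 ± 0.16 in knockout and 5.09 ± 0.10 in wild-type kidneys (SD, n = 8 and n = 7), and every knockout value lay below every wild-type value, at a limma adjusted p of 0.113. The mean over 8 kidney tubule markers, Lrp2 (0.03) and Aqp2 (0.07) among them, ran from 11.98 to 12.12 in knockout and from 11.99 to 12.11 in wild-type kidneys. Adrenal cortex markers averaged 7.20 to 9.38 in knockout replicates 10, 11, 12 and 13 and 8.18 to 8.26 in wild-type replicates 2 and 3, and 5.33 or less on the other arrays. Liver markers were high in knockout replicate 10 and in wild-type replicates 3 and 7, at 9.37, 9.39 and 11.18, and 7.51 or less on the others. The 3 measured Y-linked genes averaged 3.96 to 4.26 in knockout replicates 13, 14 and 15 and 4.01 to 4.12 in wild-type replicates 6 and 7, and 8.37 or more on the others. Adrenal medulla markers had a median difference of 0.12 (Pnmt 0.23, Ddc 0.11), liver markers of -0.59 (Apoa1 -0.96, Serpina1c -1.02) and Y-linked genes of -0.43 (Eif2s3y -0.43, Uty -0.45). The measured red blood cell marker, Slc4a1, was at -0.24. None of these lists held a gene past the threshold in limma, where 3 of 23521 probe sets passed at an adjusted p under 0.05 (0.0128%) and 1305 (5.55%) had an unadjusted p under 0.05.

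The brown fat genes chosen here had higher average levels in the knockout kidneys, with Ucp1 and Elovl3 furthest apart, while 23 other measured genes of brown fat divided into 12 higher and 11 lower. Of the 10 genes, 9 had a higher average and 1, Lep, a lower one, where 54.6% of all probe sets had a higher average. None passed limma's adjusted threshold, which 0.00425% of all probe sets passed as higher and 0.0085% as lower. An unadjusted limma p under 0.05 was reached by 6 genes, 5 higher and 1 lower, where 3.49% of all probe sets reached it as higher and 2.06% as lower. In the exact rank-sum test 4 had an unadjusted p under 0.05, as 5.1% of all probe sets did, and 0 passed after adjustment, as 0.0% did. In none of the 10 were the genotypes free of overlap, which 0.123% of all probe sets were. The median difference was 0.23 over the 10 genes and 0.008 over all probe sets. These counts describe the choice of the genes, which rested on this contrast.

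**Figure D1:**
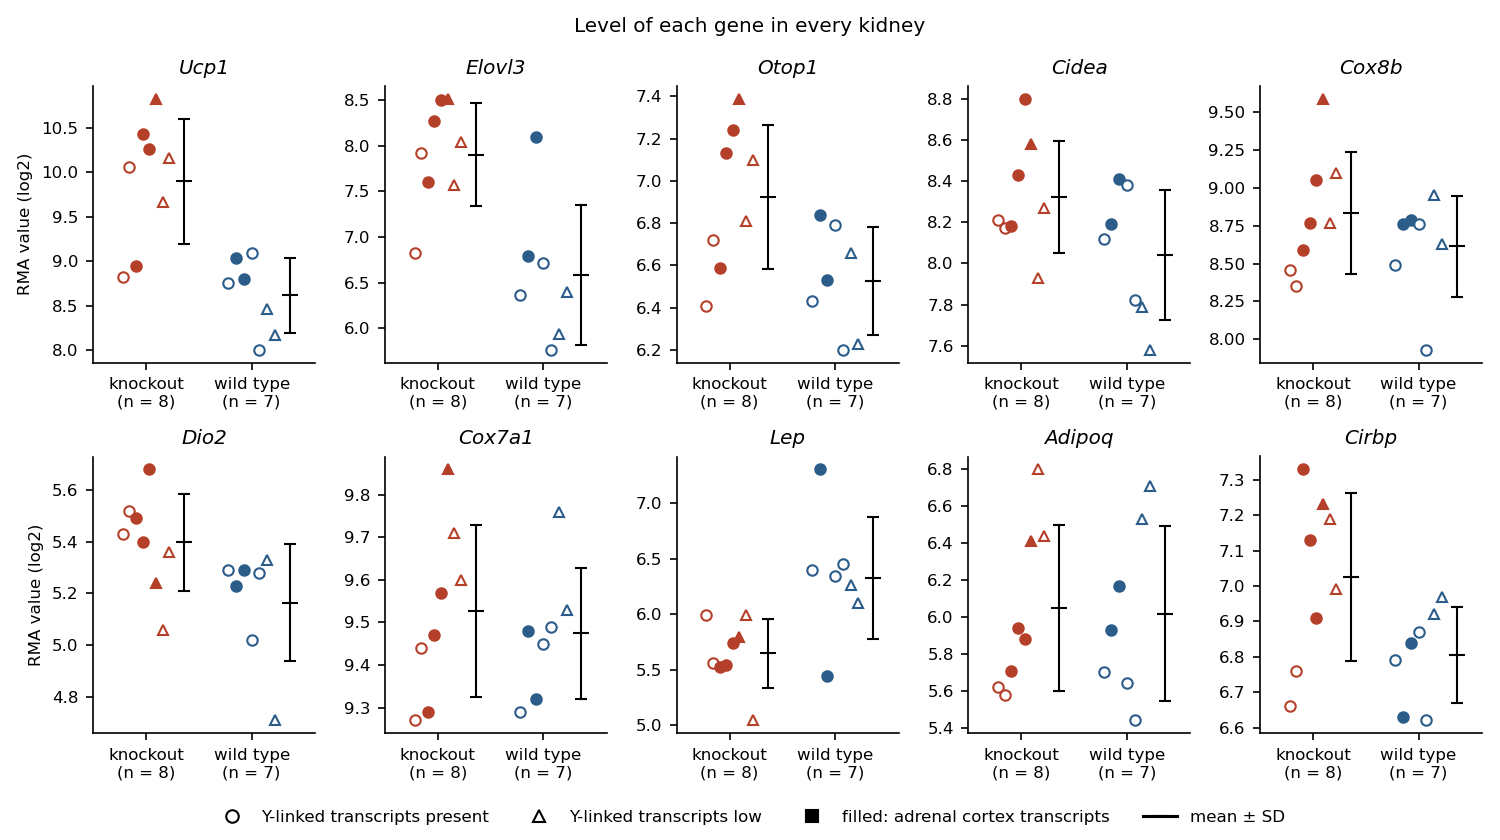
RMA value (log2) of each of the 10 genes in the 8 knockout kidneys (left) and the 7 wild-type kidneys (right), with the mean and SD beside the points. Triangles are kidneys with low Y-linked transcripts, and filled symbols are kidneys with adrenal cortex transcripts. Ucp1 ran from 8.82 to 10.83 in knockout and from 8.00 to 9.09 in wild-type kidneys, while Adipoq was high in the triangles of both genotypes.

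Ucp1, the uncoupling protein of the inner mitochondrial membrane, ranged from 8.82 to 10.83 in knockout kidneys, with a median of 10.11, and from 8.00 to 9.09 in wild-type kidneys, with a median of 8.75. Knockout replicates 8 and 10, at 8.82 and 8.95, lay within the wild-type range, and the other 6 lay above it. The mean was 9.90 ± 0.71 in knockout and 8.61 ± 0.42 in wild-type kidneys (SD, n = 8 and n = 7). The difference was 1.28 (SE 0.28), or 2.44-fold.

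Elovl3, an enzyme that elongates very long-chain fatty acids and is induced by cold in brown fat, ranged from 6.82 to 8.52 in knockout kidneys (median 7.98) and from 5.76 to 8.10 in wild-type kidneys (median 6.40). Wild-type replicate 3, which carried both liver and adrenal cortex transcripts, held the value of 8.10, and the next wild-type value was 6.79. The lowest knockout kidney, replicate 8, at 6.82, exceeded 6 of the 7 wild-type kidneys. The means were 7.90 ± 0.57 in knockout and 6.58 ± 0.77 in wild-type kidneys, a difference of 1.32 (SE 0.31) or 2.50-fold. Without wild-type replicate 3 the difference was 1.58.

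Otop1, a proton channel found in brown fat and in sour taste cells, ranged from 6.41 to 7.39 in knockout kidneys (median 6.96) and from 6.20 to 6.84 in wild-type kidneys (median 6.53). Here 4 knockout kidneys lay above all wild-type kidneys. The difference was 0.40 (SE 0.15), between 6.93 ± 0.34 in knockout and 6.53 ± 0.25 in wild-type kidneys.

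Cidea, a lipid droplet protein of brown fat, ranged from 7.93 to 8.80 in knockout kidneys (median 8.24) and from 7.58 to 8.41 in wild-type kidneys (median 8.12). Most kidneys of the genotypes overlapped, with 3 knockout kidneys above the wild-type range. The difference was 0.28 (SE 0.14).

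Dio2, the deiodinase that makes active thyroid hormone within the cell, ranged from 5.06 to 5.68 in knockout kidneys (median 5.41) and from 4.71 to 5.33 in wild-type kidneys (median 5.28) by its brighter probe set. That probe set put 6 knockout kidneys above all wild-type kidneys, with a difference of 0.23 (SE 0.10). The other probe set ranged from 2.89 to 4.0 in knockout and from 3.28 to 4.17 in wild-type kidneys, with a difference of -0.03 (SE 0.16). The probe sets of Dio2 disagreed in sign, and the mean over both gave 0.10.

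The respiratory chain isoforms differed less between the genotypes. Cox8b ranged from 8.35 to 9.59 in knockout kidneys (median 8.77) and from 7.93 to 8.95 in wild-type kidneys (median 8.76), with a difference of 0.22 (SE 0.18). The Cox8b difference was 0.10 without wild-type replicate 5, which held the lowest value, and 0.11 without knockout replicate 13, which held the highest. Cox7a1 ranged from 9.27 to 9.86 in knockout kidneys (median 9.52) and from 9.29 to 9.76 in wild-type kidneys (median 9.48), with a difference of 0.05 (SE 0.09) that was 0.002 without knockout replicate 13. Cox7a1 read 9.60 to 9.86 in the 3 knockout kidneys with low Y-linked transcripts and 9.27 to 9.57 in the other 5. In wild-type kidneys it read 9.53 and 9.76 in the 2 such kidneys and 9.29 to 9.49 in the other 5, without overlap within either genotype. Their widely expressed counterparts, Cox8a and Cox7a2, differed by 0.04 (SE 0.04) and 0.03 (SE 0.04), with limma adjusted p of 0.984 and 0.997.

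Of the adipokine genes, Lep had a lower average in knockout kidneys, though the genotypes overlapped, and the averages of Adipoq were close. Lep ranged from 5.04 to 5.99 in knockout kidneys (median 5.65) and from 5.44 to 7.31 in wild-type kidneys (median 6.34). All knockout kidneys lay below the wild-type median, and wild-type replicate 3, at 5.44, was the wild-type kidney within the knockout range. The means were 5.65 ± 0.31 in knockout and 6.33 ± 0.55 in wild-type kidneys, a difference of -0.68 (SE 0.21), or 1.61-fold lower. It was -0.52 without wild-type replicate 2, which held the highest value of 7.31. The probe sets of Lep, Adipoq and Dio2 were dim, with 46.9%, 47.9% and 35.8% of all probe sets below them in mean level, and whether they lay above background was not tested.

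Adipoq ranged from 5.58 to 6.80 in knockout kidneys (median 5.91) and from 5.44 to 6.71 in wild-type kidneys (median 5.93), with a difference of 0.03 (SE 0.22), which turned to -0.08 without knockout replicate 14. Its level divided with the Y-linked transcripts. Adipoq read 6.41 to 6.80 in the 3 knockout kidneys with low Y-linked transcripts and 5.58 to 5.94 in the other 5. In the wild types it read 6.53 to 6.71 in the 2 such kidneys and 5.44 to 6.17 in the other 5. Within each genotype these ranges did not overlap.

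Cirbp, whose transcript rises with mild cooling of cells, ranged from 6.66 to 7.33 in knockout kidneys (median 7.06) and from 6.62 to 6.97 in wild-type kidneys (median 6.84). The 5 highest values were those of knockout replicates 10, 11, 13, 14 and 15, and the other 3 lay within the wild-type range. The means were 7.02 ± 0.24 in knockout and 6.81 ± 0.14 in wild-type kidneys, a difference of 0.22 (SE 0.10). It was 0.06 among the 9 kidneys without adrenal cortex transcripts.

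Otop1 and Elovl3 varied with Ucp1 from kidney to kidney among the knockouts. This relation does not use the difference between genotypes, although the genes were grouped with earlier results of these data in view. In the 8 knockout kidneys, Otop1 followed Ucp1 with Pearson's r of 0.93 (exact permutation p = 0.000496, adjusted p = 0.00603) and Spearman's rho of 0.95 (exact permutation p = 0.00114, adjusted p = 0.0103). Elovl3 did so with r of 0.91 (exact permutation p = 0.00067, adjusted p = 0.00603) and rho of 0.95 (exact permutation p = 0.00114, adjusted p = 0.0103). Without the 2 kidneys farthest from the median Ucp1 level, r was 0.83 for Otop1 and 0.89 for Elovl3. Adjustment was over 18 relations, 9 genes in each genotype, and these 2 passed by r and by rho. Both calls ended without knockout replicate 8, where r was 0.88 for Otop1 and 0.86 for Elovl3, and without knockout replicate 11. Knockout replicates 11, 12 and 13, which carried adrenal cortex transcripts, held the highest values of Ucp1, Elovl3 and Otop1. Knockout replicate 10, which also carried them, read 8.95 for Ucp1. The part of adrenal tissue in these relations was not tested.

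**Figure D2:**
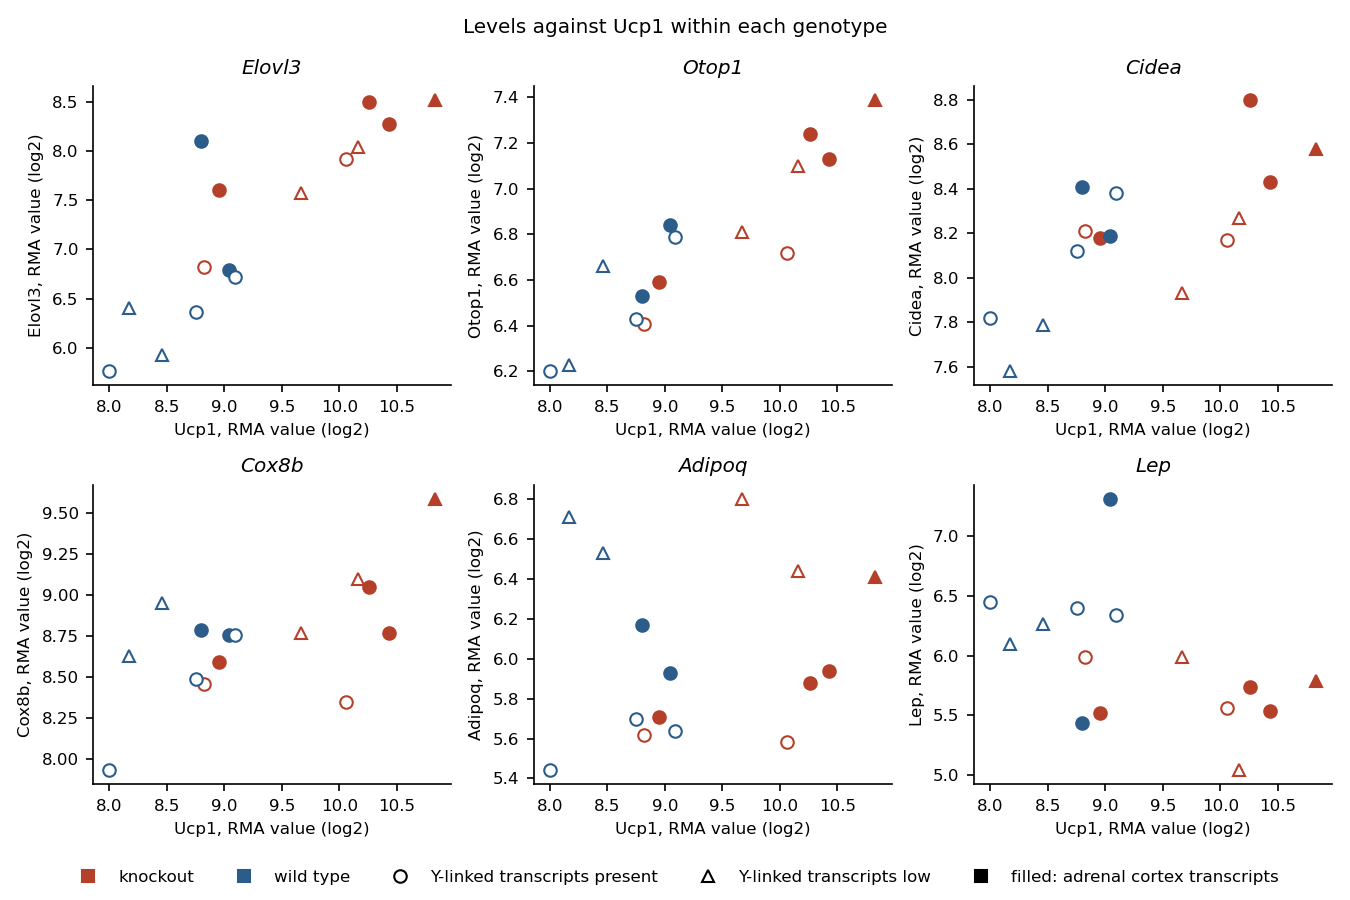
Level of Elovl3, Otop1, Cidea, Cox8b, Adipoq and Lep (vertical axes) against Ucp1 (horizontal axes), RMA values in log2, with 1 point per kidney. Knockout kidneys are red and wild-type kidneys blue, with triangles for low Y-linked transcripts and filled symbols for adrenal cortex transcripts. Otop1 lay close to a line in knockout kidneys (r = 0.93), while Lep showed none (r = -0.26).

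In the 7 wild-type kidneys Otop1 and Cidea had the highest correlations with Ucp1, and no gene passed after adjustment. After the Y-linked mean was removed within each genotype, Otop1 (r = 0.89, permutation adjusted p = 0.00536) and Cox8b (r = 0.96, permutation adjusted p = 0.0131) passed there, and Adipoq stood at 0.50. Permutation of such residuals is approximate, not exact. Otop1 had r of 0.86 (exact permutation p = 0.0175, adjusted p = 0.092) and rho of 0.86 (exact permutation p = 0.0238, adjusted p = 0.143). Cidea had r of 0.85 (exact permutation p = 0.0204, adjusted p = 0.092) and rho of 0.79 (exact permutation p = 0.048, adjusted p = 0.17). Elovl3 had r of 0.56 (exact permutation p = 0.184) and rho of 0.75 (exact permutation p = 0.0663), and r of 0.82 without replicate 3. Without the 2 kidneys farthest from the median Ucp1 level, r in wild-type kidneys was 0.53 for Otop1, 0.78 for Cidea and 0.35 for Elovl3. Cox8b had r of 0.61 and rho of 0.45 (exact permutation p = 0.135 and 0.318) and Cox7a1 r of -0.36 and rho of -0.54 (exact permutation p = 0.454 and 0.236), and r was -0.29 and -0.48 without those kidneys.

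In knockout kidneys, Cidea had r of 0.58 and rho of 0.71 (exact permutation p = 0.127 and 0.0576), Cox8b r of 0.70 and rho of 0.76 (exact permutation p = 0.0517 and 0.0368) and Cox7a1 r of 0.77 and rho of 0.67 (exact permutation p = 0.0271 and 0.0831). None of these passed after adjustment, with adjusted p from 0.0976 to 0.304, but Cox7a1 did without knockout replicate 14 (r = 0.88, exact permutation adjusted p = 0.0357). Without the 2 kidneys farthest from the median Ucp1 level, r was 0.74 for Cidea, 0.68 for Cox8b and 0.33 for Cox7a1. Whether any of these relations differed between the genotypes was not tested.

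The adipokine genes, Dio2 and Cirbp did not pass as relations to Ucp1 in either genotype. In knockout kidneys r was 0.39 for Adipoq, 0.19 for Cirbp, -0.09 for Dio2 and -0.26 for Lep, with exact permutation p from 0.339 to 0.828 for r. Spearman's coefficient was 0.38 for Adipoq, 0.24 for Cirbp, -0.17 for Dio2 and -0.21 for Lep, with exact permutation p from 0.36 to 0.703. In wild-type kidneys r was -0.22 for Adipoq, -0.05 for Cirbp, 0.19 for Dio2 and 0.22 for Lep, with exact permutation p from 0.61 to 0.916 for r. Spearman's coefficient was -0.14 for Adipoq, 0.00 for Cirbp, -0.11 for Dio2 and 0.07 for Lep, with exact permutation p from 0.783 to 1.0. Adjusted p ran from 0.589 to 1.0. Without the 2 kidneys farthest from the median Ucp1 level, r in knockout kidneys was -0.21 for Adipoq, 0.27 for Cirbp, 0.21 for Dio2 and -0.11 for Lep. In wild-type kidneys it was then -0.77 for Adipoq, -0.54 for Cirbp, -0.78 for Dio2 and 0.38 for Lep.

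Over all 15 arrays, after the mean of each genotype was subtracted, Otop1 was the gene most like Ucp1 of 22179 others, at a correlation of 0.91. On this measure, which describes the arrays and is not tested, Elovl3 ranked 19 (0.71), Cox8b 45 (0.66), Cidea 56 (0.65) and Cox7a1 732 (0.45). Adipoq, Cirbp, Dio2 and Lep were at 0.17, 0.14, 0.01 and -0.03. The 10 genes outside the members with the highest values were Olfr700 (0.87), A630023P12Rik, Prnd, H2bc1, Ripor2, Mir1932, Olfr888, Rnf8, Olfr122 and Olfr429 (0.74). None of these 10 is in the lists of fat genes, and 4 of them encode olfactory receptors. H2bc1 (2.08 in knockout and 1.99 in wild type) and Olfr888 (2.55 and 2.67) read near the lowest array value of 1.28. Ripor2, Mir1932 and Rnf8 were brighter, with averages from 6.60 to 7.10. Whether the dim ones lay above background was not tested.

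Like the members, other genes of the brown fat programme did not pass between genotypes. Some read high in both, such as Slc27a2 (13.20 in knockout and 13.22 in wild type) and Ppargc1a (10.83 and 10.79). Which cells of the sample gave these levels was not tested. Of 28 listed, 23 were measured and 0 passed limma in either direction, where 0.0128% of all probe sets did. An unadjusted limma p under 0.05 was reached by 3 higher and 2 lower. Of all probe sets, 3.49% reached it as higher and 2.06% as lower. The median difference of the 23 genes was 0.03, in a range from -0.28 to 0.44. Letmd1, a mitochondrial protein of brown fat, differed by 0.18 (SE 0.05, limma adjusted p = 0.485), and Bmp8b, a secreted factor that promotes thermogenesis, by -0.28 (SE 0.10, limma adjusted p = 0.727). Prdm16 and Ppargc1a, regulators of the brown fat and mitochondrial programmes, differed by 0.06 (SE 0.08) and 0.03 (SE 0.07), both with a limma adjusted p of 0.997. In likeness to Ucp1 over the 15 arrays, Nrg4 (0.68), which encodes a secreted factor of brown fat, Ucp3 (0.64), a relative of Ucp1, and Letmd1 (0.51) led the list, whose median was 0.13 beside 0.01 for all genes. Between the genotypes, Nrg4 differed by 0.21 (SE 0.08, limma adjusted p = 0.798) and Ucp3 by 0.44 (SE 0.19, limma adjusted p = 0.885). With Letmd1, they were the 3 higher genes with an unadjusted limma p under 0.05. Nrg4 and Ucp3 are named after their values were seen.

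Genes of fat cells in general had differences from -0.43 to 0.36 between the genotypes. Of 29 listed, 27 were measured, and 21 had a higher and 6 a lower average in knockout kidneys. Over all probe sets, 54.6% had a higher average. In limma 0 passed, and 3 higher genes had an unadjusted p under 0.05, which 3.49% of all probe sets had as higher. The median difference of the 27 genes was 0.10. Pparg, the master regulator of fat cell formation, differed by 0.20 (SE 0.06, limma adjusted p = 0.632) and the glycerol channel gene Aqp7 by 0.19 (SE 0.07, limma adjusted p = 0.727). Fabp4, a fatty acid carrier, averaged 11.91 ± 0.28 in knockout and 11.81 ± 0.25 in wild-type kidneys (limma adjusted p = 0.997). Plin1, which coats the fat droplet, averaged 8.07 ± 0.39 in knockout and 7.93 ± 0.31 in wild-type kidneys (limma adjusted p = 0.997). Retn, which encodes the adipokine resistin, differed by 0.16 and Cidec, a droplet protein, by 0.01 (limma adjusted p = 0.997 and 0.999). Like Adipoq, Retn divided with the Y-linked transcripts, at 10.64 to 11.03 in the 3 knockout kidneys with low levels of them and 9.11 to 9.74 in the other 5. In wild-type kidneys Retn read 10.45 and 10.65 in the 2 such kidneys and 9.29 to 9.89 in the other 5.

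The mean over the 27 general fat genes ranged from 8.66 to 9.17 in knockout and from 8.62 to 9.08 in wild-type kidneys. This mean divided with the Y-linked transcripts. It read 9.01 to 9.17 in the 3 knockout kidneys low in them and 8.66 to 8.86 in the other 5, and 8.98 and 9.08 in the 2 such wild-type kidneys and 8.62 to 8.82 in the other 5. No fat gene of the list had a correlation with Ucp1 above 0.5 on the measure of likeness, and the highest was Lipe, the hormone-sensitive lipase, at 0.46, named after its value was seen. Some genes of the list read high in both genotypes, such as Scd1 (12.78 in knockout and 12.75 in wild type), and their cell source was not tested. The part of attached fat in the levels of Ucp1 and its companions was not tested.

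Signalling genes around the adipokines and around thermogenesis also did not pass. Of 12 genes of leptin and adiponectin reception and signalling, all measured, 0 passed limma. Over all probe sets 5.55% had an unadjusted limma p under 0.05, and 1 of these genes did. That gene was Cdh13, the adiponectin-binding T-cadherin, at -0.21 (SE 0.06, limma adjusted p = 0.588). The adaptor Appl1 was at 0.10 (SE 0.05, limma adjusted p = 0.937) and the leptin receptor Lepr at -0.02 (SE 0.17, limma adjusted p = 0.998). Of 12 genes of adrenergic and thyroid input, 8 were measured and 0 passed, with 1 at an unadjusted p under 0.05, the cAMP-responsive factor Creb1 at -0.15 (SE 0.05, limma adjusted p = 0.666). The thyroid hormone and amino acid transporter gene Slc16a10 was at 0.09 (SE 0.09, limma adjusted p = 0.989).

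Relatives of the members had differences close to 0. Of 15 other subunits of cytochrome c oxidase, 14 were measured, with a median difference of 0.02, and 0 passed or had an unadjusted p under 0.05. Their smallest p-values belonged to Cox7b at -0.09 and the muscle isoform Cox6a2 at 0.11 (limma adjusted p = 0.979 and 0.984). Of 8 relatives in the Elovl and Cide families, 7 were measured, with a median difference of 0.01, and 0 passed or had an unadjusted p under 0.05. Elovl6 differed by 0.19 (SE 0.29) and Elovl7 by 0.02 (SE 0.04), both with a limma adjusted p of 0.997. Skeletal muscle markers, which could accompany Cox8b and Cox7a1, had means over 15 genes from 5.31 to 5.48 in knockout and from 5.29 to 5.53 in wild-type kidneys. Among them Tnni2 was at -0.12 and Acta1 at -0.11 (limma adjusted p = 0.979 and 0.984).

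Most heat shock genes had lower averages in knockout kidneys, and Cirbp had a higher one. Any part of temperature in these levels was not tested. Of 20 listed cold-induced or heat shock genes, 17 were measured and 16 had a lower average in knockout kidneys. Over all probe sets, 54.6% had a higher average. None passed limma, where 0.0128% of all probe sets did. An unadjusted limma p under 0.05 was reached by 10 lower and 1 higher. Of all probe sets, 2.06% reached it as lower and 3.49% as higher. The median difference of the 17 genes was -0.26, beside 0.008 over all probe sets. The higher one was Srsf5, a splicing factor, at 0.24 (SE 0.06, limma adjusted p = 0.381), chosen here after its value was seen.

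**Figure D3:**
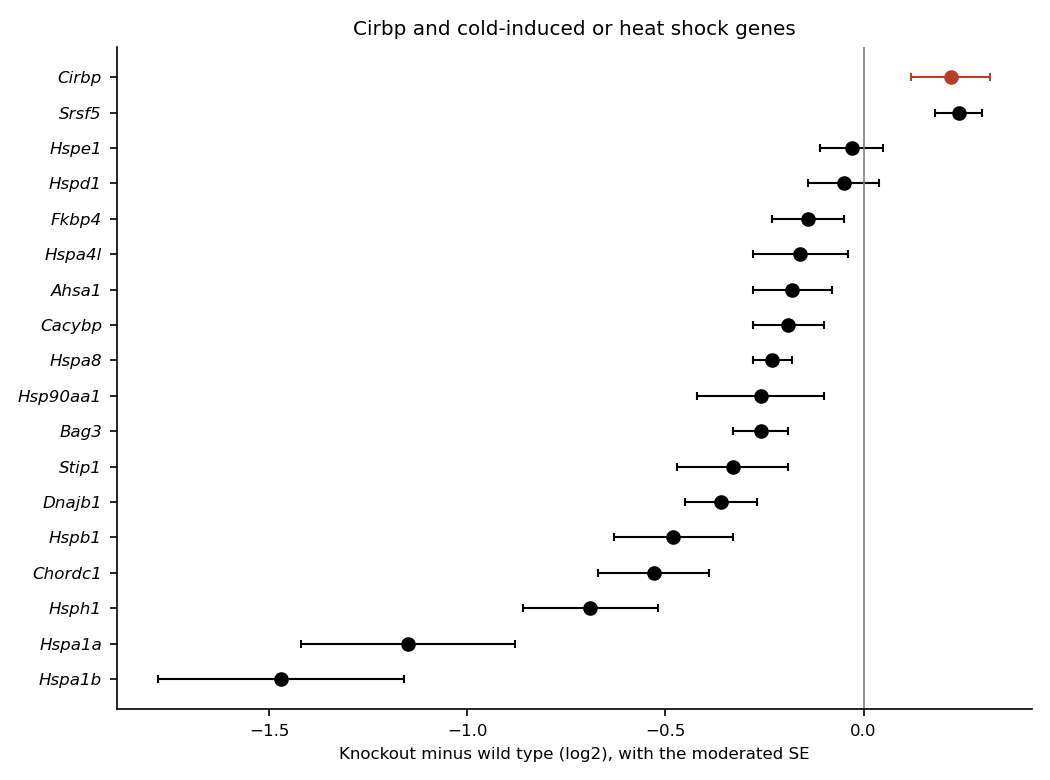
Knockout minus wild-type difference (log2, horizontal axis) of Cirbp (red) and of the 17 measured cold-induced or heat shock genes (black), with the moderated SE as bars. Cirbp lay at 0.22 and Srsf5 at 0.24, and the other genes ran from -0.03 to -1.47.

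Hspa1b, an inducible heat shock chaperone gene, ranged from 8.26 to 9.10 in knockout and from 9.32 to 11.47 in wild-type kidneys, without overlap. The difference was -1.47 (SE 0.31, limma adjusted p = 0.244). Its near-identical neighbour Hspa1a differed by -1.15 (SE 0.27, limma adjusted p = 0.361), and probes of this pair may read both transcripts. Hspa8, the constitutive member of the family, also did not overlap, at 12.55 to 12.80 in knockout and 12.83 to 13.01 in wild-type kidneys, with a difference of -0.23 (SE 0.05, limma adjusted p = 0.222). The other 3 probe sets of Hspa8 differed by -0.36 to -0.49 (limma adjusted p from 0.113 to 0.361). Hsph1, a co-chaperone of these, differed by -0.69 (SE 0.17, limma adjusted p = 0.381). In all, 2 of the 17 genes had genotypes without overlap, where 0.123% of all probe sets did. The list was chosen with earlier results of these data known, so its counts describe that choice.

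The most like genes to Cirbp over the 15 arrays, after each genotype's mean was subtracted, were E130307A14Rik (0.88), Lrrtm1, Zbtb38, LTO1 and Manbal (0.79). The least like were Rprd1a (-0.89), Olfr1090, Olfr1278, A630095N17Rik and Pramel35 (-0.85). For Lep the closest were Ywhae (0.89), 4930480M12Rik, Gm10257, Dlgap3 and Znrd2 (0.82). None of these 15 genes was in a list used here. Some were dim, such as Olfr1278 (1.97 in knockout and 2.12 in wild type) and Pramel35 (2.34 and 2.30). Zbtb38 (8.25 and 8.27) and Ywhae (11.65 in both) were not.

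Adrenal cortex transcripts, which reached 4 knockout and 2 wild-type kidneys, were also set against the levels of the members. Within the kidneys that carried them, Ucp1 averaged 10.12 in knockout (8.95 to 10.83, n = 4) and 8.92 in wild type (8.80 to 9.04, n = 2), a difference of 1.20. Within the kidneys without them, Ucp1 averaged 9.68 in knockout (8.82 to 10.16, n = 4) and 8.49 in wild type (8.00 to 9.09, n = 5), a difference of 1.18. The Ucp1 difference was about as large in both sets of kidneys. Like Ucp1, Elovl3, Otop1, Cidea, Cox8b and Dio2 had higher averages with adrenal cortex transcripts than without them in both genotypes. Lep did so by a small margin, at 5.65 with and 5.64 without them in knockout kidneys and 6.37 and 6.31 in wild-type kidneys. Elovl3 averaged 8.22 with and 7.59 without them in knockout kidneys, and 7.44 and 6.23 in wild-type kidneys. Cox7a1, Adipoq and Cirbp went opposite ways between the genotypes. The part of adrenal tissue in these levels was not tested. Elovl3 differed by 0.78 with adrenal cortex transcripts and by 1.35 without them, Otop1 by 0.40 and 0.30, and Lep by -0.73 and -0.67. Cirbp differed by 0.41 with them and by 0.06 without them. Of 9 measured adrenal cortex markers, 9 had a higher average in knockout kidneys, as 54.6% of all probe sets did. In limma 0 passed the threshold and 0 had an unadjusted p under 0.05 (Mc2r 0.55, Hsd3b1 1.34).

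**Figure D4:**
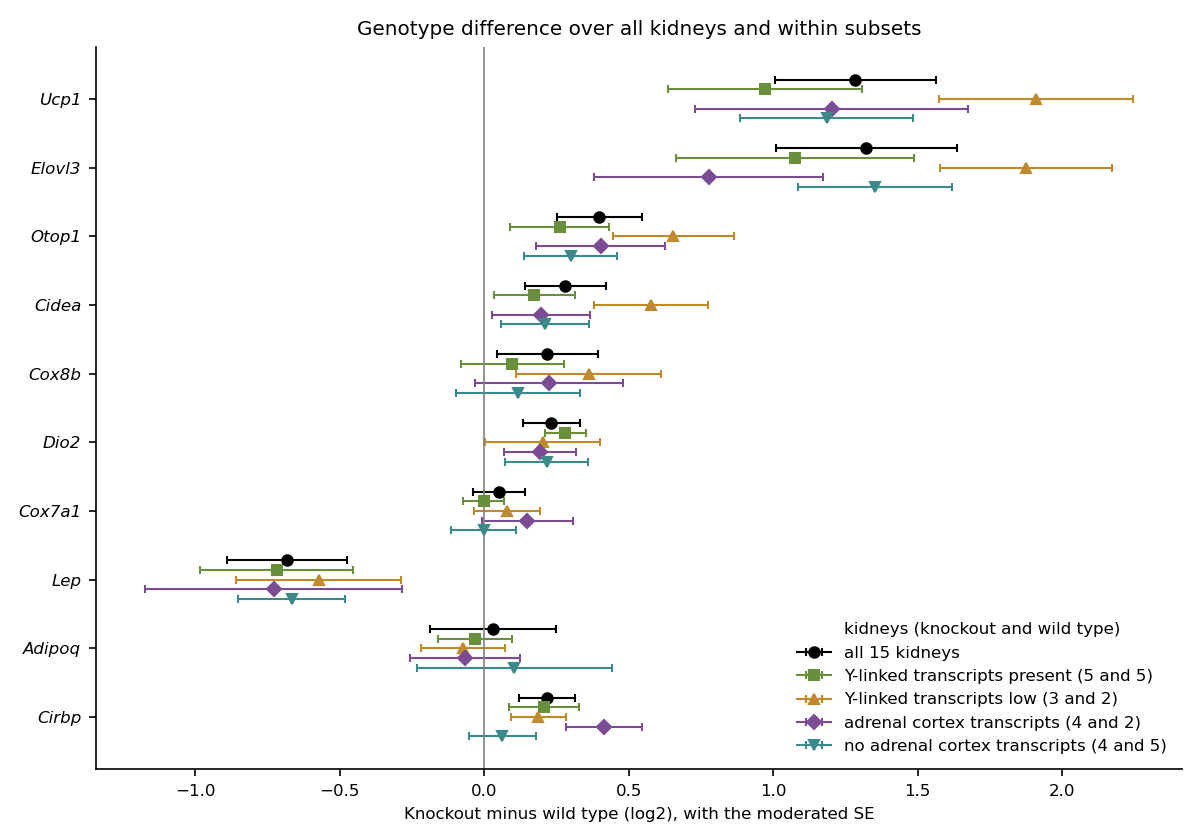
Knockout minus wild-type difference (log2, horizontal axis) with the moderated SE for each gene, over all 15 kidneys and within 4 subsets of them, whose numbers of knockout and wild-type kidneys stand in the legend. Ucp1 lay at 1.28 over all kidneys, between 0.97 and 1.91 in the subsets, and Cirbp at 0.06 in the kidneys without adrenal cortex transcripts.

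Among the kidneys with Y-linked transcripts, 5 of each genotype, Ucp1 differed by 0.97, Elovl3 by 1.08, Otop1 by 0.26, Cidea by 0.17 and Lep by -0.72. Among those without them, 3 knockout and 2 wild type, Ucp1 differed by 1.91, Elovl3 by 1.87, Otop1 by 0.66, Cidea by 0.58 and Lep by -0.57. Over all 23521 probe sets, 0 passed a limma test of whether the genotype difference depended on Y-linked transcripts, and 1655 had an unadjusted p under 0.05. The interaction is the difference with Y-linked transcripts less that without them. For Ucp1 it was -0.94 (SE 0.58), and for Elovl3 -0.80 (SE 0.68). Without the 3 kidneys that carried liver transcripts, Ucp1 differed by 1.37, Elovl3 by 1.64, Lep by -0.89 and Cirbp by 0.21.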

How the data were processed

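Total RNA from 15 kidneys was labelled with biotin after the Ambion WT Expression kit and read on a 1-colour array. The authors summarised each probe set with RMA and deposited it on the log2 scale, per the submitters' processing notes. Its version and the genome build are not given in the sources used here. RMA equalises the arrays' distributions and compresses dim probe sets, so their differences can understate the change. Precision is limited by how many arrays there are, and p-values measure the spread between arrays, each taken as 1 mouse. Of 41345 probe sets, the 23521 with exactly 1 symbol were tested, and 23328 of these took the current symbol by Entrez ID from RefSeq GRCm38.p6.

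Groups came from the sample titles. Genotypes were compared with limma 3.58.1 in R 4.3.3 (lmFit and eBayes, no covariate, two-sided), with Benjamini-Hochberg adjustment over all probe sets and a threshold of 0.05. A difference is the knockout mean less the wild-type mean, with limma's moderated SE. For a gene with several probe sets, the one with the highest mean was used. Correlations were tested by exact permutation (two-sided) in Python 3.11.15 with SciPy 1.17.1, and the rank-sum test was exact over 6435 splits. For residuals after removal of the Y-linked mean, permutation is only approximate. The fit was tested on simulated data. A kidney was counted as carrying adrenal cortex or liver transcripts where its marker mean exceeded the median by more than 1 log2 unit, and Y-linked ones where it lay above the midpoint of their range.

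The members and lists were chosen with earlier results of these data known. The text names the members, Grhl1, the genes most like Ucp1, Lep and Cirbp, in each list the genes past the threshold or the 2 with the smallest p, and fixed partners, of which Adrb3, Cfd and Rbm3 were not analysed here. Marker lists of adrenal medulla, liver and red blood cells served as checks. Alternatives were other variance models, array weights, scaling, a filter on dim probe sets, tissue and Y-linked covariates or subsets, and leaving out each kidney.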

Additional observations from a re-analysis of the deposited data

How the results depend on the processing

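The median difference over the 10 genes was 0.226 and lay between 0.163 and 0.282 in 29 alternatives, with 0.203 to 0.271 when 1 kidney was left out. Ucp1 (1.151 to 1.439), Elovl3 (1.187 to 1.577), Otop1 (0.332 to 0.473) and Lep (-0.83 to -0.52) kept their sign in each such fit, while Adipoq (-0.079 to 0.145) turned in 6 of 15. No paired analysis was possible because the labels give no litter or other pairing of the animals.

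Calls over all probe sets numbered 3, against 0 without dim probe sets (771 with an unadjusted p under 0.05), 0 by the rank-sum test (1199), 1 among kidneys without Y-linked transcripts (1714), 14 with the Y-linked mean as covariate and 0 among kidneys with adrenal cortex transcripts (1567), a setting chosen after seeing the data. Leaving out 1 kidney gave 2 to 6, with 6 without knockout replicate 8. The lists held 0 called genes in limma and 0 to 0 when 1 kidney was left out, but 1 with the Y-linked covariate, Chordc1 at -0.50 (limma adjusted p = 0.0102), named after its value was seen. The count of relations with Ucp1 that passed was 2, 4 after removal of the Y-linked mean (Otop1 in both genotypes, Elovl3 in knockout and Cox8b in wild-type kidneys) and 0 to 3 when 1 kidney was left out, 0 without knockout replicate 8 or 11 and 3 without knockout replicate 14, where Cox7a1 was added. The causes were not tested.

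Some named genes that were not called turned sign. Lepr was 0.034 with array weights, 0.008 and 0.043 with adrenal cortex and liver covariates, 0.094 with Y-linked transcripts, 0.079 without liver transcripts, 0.251 with adrenal cortex transcripts, and -0.091 to 0.096 without 1 kidney. Cidec was -0.04, -0.019 and -0.007 with Y-linked, adrenal cortex and muscle covariates, -0.11 with Y-linked and -0.017 without adrenal cortex transcripts, and -0.075 to 0.121 without 1 kidney. With Y-linked transcripts, Eif2s3y was 0.045, Uty 0.09 and Retn -0.075, and without 1 kidney Eif2s3y ran from -0.978 to 0.016, Uty from -1.029 to 0.05 and Ppargc1a from -0.007 to 0.07. Without Y-linked transcripts, Acta1 was 0.219, Appl1 -0.006, Cox7a2 -0.041, Fabp4 -0.012 and Ppargc1a -0.033. Pnmt was -0.026 with the adrenal cortex covariate, and without adrenal cortex transcripts Pnmt was -0.044, Aqp2 -0.038 and Fabp4 -0.048. With adrenal cortex transcripts, Cox7b was 0.021, Lrp2 -0.023, Slc4a1 0.029 and Tnni2 0.085.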
